A study of Arabidopsis thaliana with 51 samples.

Results

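The 5 libraries described here come from young Arabidopsis thaliana flowers that carry the construct ARE//AGe in plants of the alleles suvh1-2, hdp1-1 or hdp2-1. They were chosen by title from the third of the study's sets of libraries (set C), and are 5 of the 51 libraries deposited. They comprise suvh1-2 with the flower phenotype sMf, hdp1-1 with rMf and with sMf, and hdp2-1 with rMf and with sMf. They were compared with 2 libraries of Col plants with ARE//AGe and flowers labelled Wt, from sets A and C. Further comparisons used the same 3 alleles without a construct (1 library each, Wt flowers, set C), Col without a construct (3 libraries, sets A and C) and the 4 set B libraries of Met1-1 and ddm1-1 with ARE//AGe (sMf and rMf each). All carried the same treatment label, a change of floral structure.

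The series title expands ARE as an anti-RdDM element, where RdDM is RNA-directed DNA methylation. The labels spell out neither AGe, AGp, sMf nor rMf, and do not say which sequence a construct carries, so reads of a construct copy and of the resident locus cannot be told apart. Each library pooled flowers of 5 to 10 plant lines of like phenotype, per the labels' protocols. Every allele and phenotype with ARE//AGe has 1 library, so p-values measure the spread between these libraries, across alleles and phenotypes together. Allele libraries with ARE//AGe have sMf or rMf flowers and the Col libraries with ARE//AGe have Wt flowers, and the 2 groups lie in different column blocks of the table. Effects of allele, flower phenotype and column block therefore cannot be told apart in that comparison. The allele libraries without a construct have Wt flowers, so within the alleles the construct and the flower phenotype cannot be told apart.

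In plants, cytosines are methylated in the contexts CpG, CHG and CHH (H is A, C or T). CpG methylation is copied at replication by MET1, CHG methylation is maintained by CMT3, and CHH methylation has to be set anew, by DRM2 guided by small RNAs or by CMT2. HDP1 and HDP2 are proteins derived from a Harbinger transposase that work with the histone acetyltransferase IDM1 to bring the DNA demethylase ROS1 to methylated loci. SUVH1 binds methylated DNA and promotes transcription of genes near it. Going by the construct names, the covered region is that of AG (AT4G18960), a MADS-box gene that specifies stamens and carpels. Its chromosome is 4 and its neighbours are AT4G18950, AT4G18970 and a noncoding RNA gene, AT4G06860, per the TAIR10.1 gene table. The deposited table names no chromosome, and exons, introns and gene borders were not located here.

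Methylation was listed for 5709 cytosines over 17298 bp, from 10374202 to 10391499 in TAIR10, and 5210 were analysed after the rows had been brought into register (571 CpG, 659 CHG and 3980 CHH). The table gives whole percentages without read counts, so depth is unknown and no interval was computed for a level. The 5 libraries had between 5114 and 5154 of these cytosines with a value. Missing entries are marked in set C but not in set A, where Col ARE//AGe lists a value at all 5210, so a 0 there may stand for an unmethylated or an uncovered cytosine. Stretches were delimited in a library that enters no test, Col AGp//AGe with sMf flowers. A 500-bp CpG-only domain ran from 10377002 to 10377501, the AGp domain from 10380602 to 10382801 (590 cytosines) and the AGe domain from 10384302 to 10387101 (745 cytosines).

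In the CpG-only domain the 5 libraries lay close to Col ARE//AGe and to the same alleles without a construct. Its CpG level was 68.3%, 63.9%, 66.7%, 66.7% and 64.6% in the 5 libraries, against 63.6% and 64.3% in Col ARE//AGe. Levels without a construct were 63.8%, 66.4% and 66.4% in suvh1-2, hdp1-1 and hdp2-1. The Met1-1 and ddm1-1 libraries with ARE//AGe spanned 0.833% to 62.0% there, and Col AGp//AGe had 53.7% to 55.3%, all below the 5 libraries.

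The library labelled suvh1-2 without a construct stood apart from the other libraries without one. Its level over all contexts was 11.9% in the AGe domain, 40.5% of the level in suvh1-2 with ARE//AGe, and 18.1% in the lower part of the AGp domain (10380602 to 10381801), 59.8% of that level. In hdp1-1 without a construct the same stretches had 5.09% and 6.95%, and in hdp2-1 without a construct 0.861% and 3.13%. Col without a construct had 0.66% to 1.50% in the AGe domain. The stretches methylated in suvh1-2 and hdp1-1 without a construct were those methylated with ARE//AGe, and their origin was not tested. The comparisons with the alleles without a construct are also given without suvh1-2 and hdp1-1, an alternative chosen after the data were seen.

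**Figure D1:**
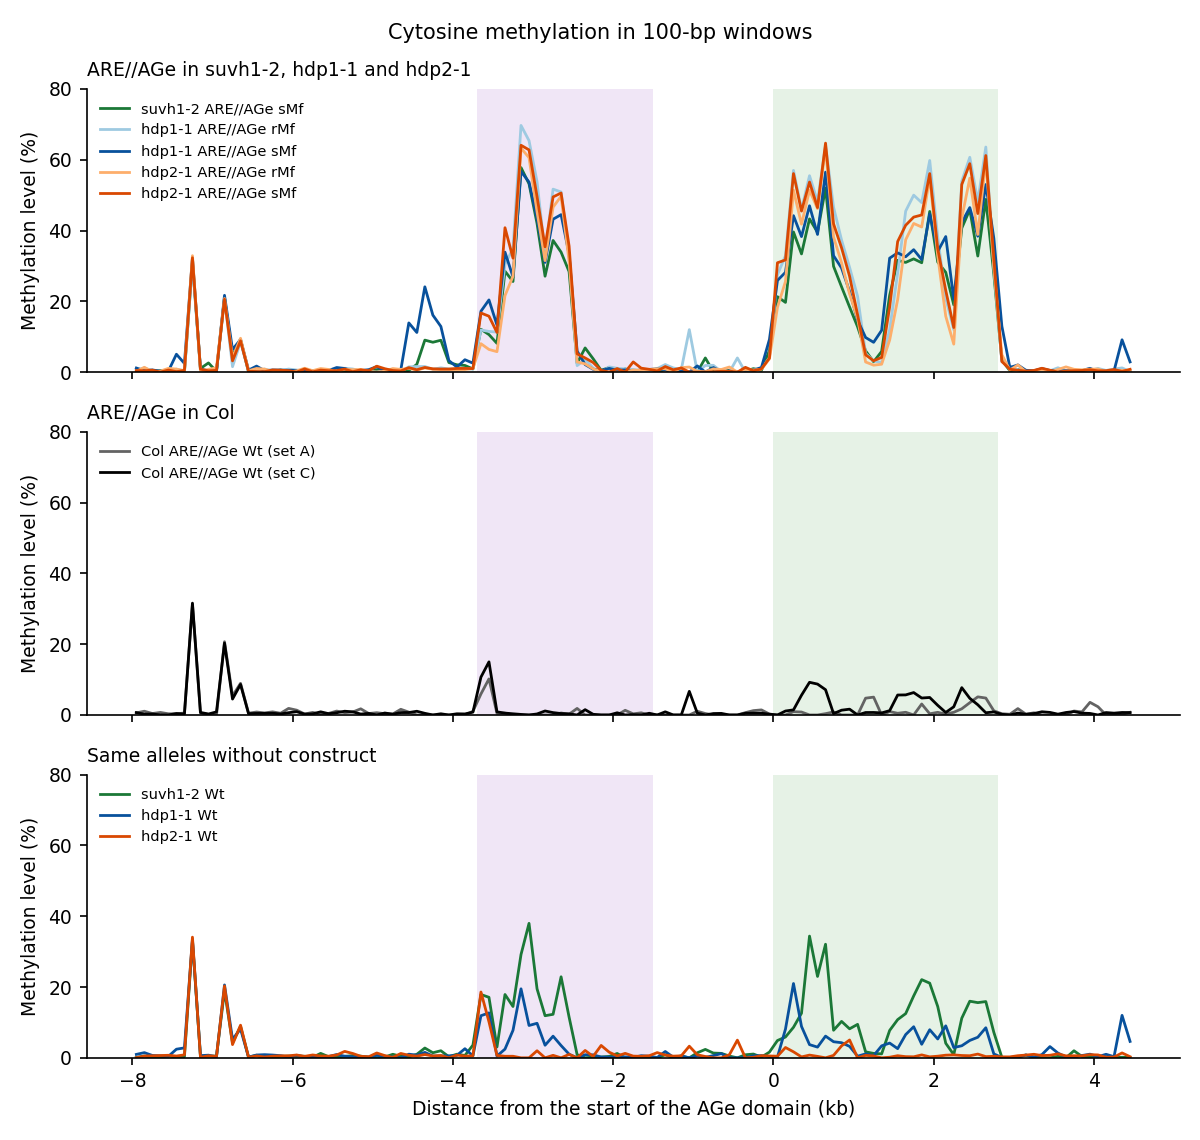
Mean methylation level over all contexts in 100-bp windows, plotted against the distance from the start of the AGe domain in kb. The top panel holds the 5 allele libraries with ARE//AGe, the middle panel the 2 Col libraries with ARE//AGe and the bottom panel the 3 alleles without a construct. Shading marks the AGp domain (left) and the AGe domain (right). The 5 libraries are methylated over the AGe domain and the lower part of the AGp domain, Col ARE//AGe stays under 10% in every window of the AGe domain, and suvh1-2 without a construct shows the same stretches at a lower level.

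The first question was how methylated the AGe domain is when ARE//AGe sits in these alleles and not in Col. All 3 contexts were methylated in each of the 5 libraries and averaged at most 5.60% in both Col ARE//AGe libraries. CHG was highest. It reached 52.4% in suvh1-2 with sMf flowers, 58.2% and 58.6% in hdp1-1 with rMf and sMf flowers, and 52.1% and 59.4% in hdp2-1 with rMf and sMf flowers, against 2.18% and 5.60% in Col ARE//AGe of sets A and C. The 5 CHG levels spanned under 8 points and lay far above both Col levels. The mean was 56.1% ± 3.57 in the alleles and 3.89% ± 2.42 in Col (SD, n = 5 and 2), a difference of 52.2 points.

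CHH levels in the AGe domain were 26.4% in suvh1-2 with sMf flowers, 36.6% and 29.6% in hdp1-1 with rMf and sMf flowers, and 31.1% and 35.1% in hdp2-1 with rMf and sMf flowers, against 1.19% and 2.99% in Col ARE//AGe. The mean difference was 29.7 points (31.8% ± 4.13 in the alleles and 2.09% ± 1.28 in Col). CpG varied most among the 5, at 36.4% in suvh1-2 with sMf flowers, 23.4% and 47.0% in hdp1-1 with rMf and sMf flowers, and 23.5% and 29.2% in hdp2-1 with rMf and sMf flowers, against 2.65% and 2.08% in Col ARE//AGe. The CpG difference was 29.6 points (31.9% ± 9.97 in the alleles and 2.37% ± 0.408 in Col). In each context all 5 libraries lay above both Col libraries, and the difference exceeded the spread between libraries.

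The exact two-sided permutation test gave p = 0.0952 for each context, the smallest p that 5 libraries against 2 allow, and an adjusted p of 0.111 over the 14 level differences tested. No such comparison could therefore pass 0.05. Against the same alleles without a construct the AGe differences were 27.3 points in CpG, 46.0 in CHG and 26.1 in CHH, with no overlap between the groups. Here the exact test gave p = 0.0357, again the smallest possible, and an adjusted p of 0.0833. Without suvh1-2 and hdp1-1 the remaining library, hdp2-1 without a construct, had 0.135%, 0.587% and 0.952%, so the gap to the 5 libraries was wider.

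**Figure D2:**
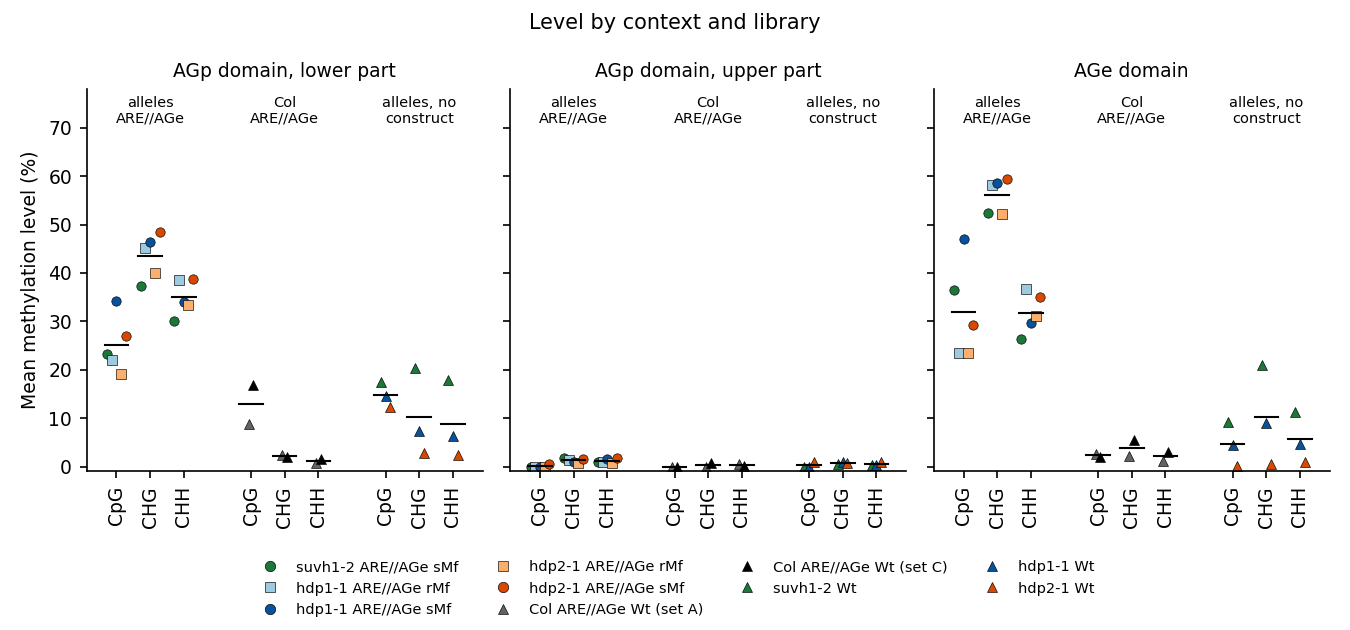
Mean methylation level in percent by context for each library in the lower part of the AGp domain, its upper part and the AGe domain. Within a panel the allele libraries with ARE//AGe stand left, Col ARE//AGe next and the alleles without a construct right. Points are libraries (squares rMf, circles sMf, triangles Wt flowers) and bars are group means. The AGe CHG points of the 5 libraries lie between 52.1% and 59.4%, and the upper part of the AGp domain stays under 2% in every library drawn.

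In the AGp domain the same contrast depended on position. Over the whole domain CHG levels were 18.6%, 23.7%, 22.8%, 19.9% and 23.4% in suvh1-2 sMf, hdp1-1 rMf, hdp1-1 sMf, hdp2-1 rMf and hdp2-1 sMf, against 1.09% and 1.30% in Col ARE//AGe. CHH levels were 19.4%, 24.6%, 21.4%, 21.3% and 24.2% in the same order, against 0.683% and 0.960% in Col ARE//AGe. The differences were 20.5 points in CHG and 21.3 points in CHH. All 5 libraries lay above both Col libraries, with the same exact p of 0.0952 and adjusted p of 0.111.

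CpG in the AGp domain showed a smaller contrast, since Col ARE//AGe is methylated there as well. Levels were 18.9%, 17.9%, 29.0%, 15.6% and 21.4% in the 5 libraries, against 6.96% and 13.7% in Col ARE//AGe. The difference of 10.2 points (exact permutation p = 0.0952, adjusted p = 0.111) was the least stable of the 6. Leaving out 1 library at a time moved it between 6.81 without Col ARE//AGe of set A and 13.6 without Col ARE//AGe of set C. It turned to -3.74 when cytosines listed at 0 throughout a column block were left out, a step that leaves different cytosines in each block. Against the alleles without a construct the AGp differences were 8.30 points in CpG, 16.4 in CHG and 16.5 in CHH (exact permutation p = 0.0357, adjusted p = 0.0833 each). Without suvh1-2 and hdp1-1 the remaining library, hdp2-1, had AGp domain levels of 11% in CpG, 1.78% in CHG and 1.76% in CHH, each below all 5 libraries.

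The lower part of the AGp domain, with 338 cytosines, held nearly all of this methylation. Its CHG levels were 37.3%, 45.2%, 46.3%, 40.0% and 48.5% in suvh1-2 sMf, hdp1-1 rMf, hdp1-1 sMf, hdp2-1 rMf and hdp2-1 sMf, against 2.38% and 1.92% in Col ARE//AGe. CHH levels there were 30.1%, 38.6%, 33.9%, 33.4% and 38.7% in the same libraries, against 0.828% and 1.57% in Col ARE//AGe. CpG levels there were 23.2%, 22.0%, 34.2%, 19.2% and 27.0%, against 8.86% and 16.9% in Col ARE//AGe and 17.5%, 14.6% and 12.3% in suvh1-2, hdp1-1 and hdp2-1 without a construct. CHH lay above CpG in 4 of the 5 libraries there and in 3 of them in the AGe domain. The border of the lower part was read from these 5 libraries, so these values are given without a test.

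Single cytosines were tested with limma on log2 odds in a fit of 13 libraries and 2629 cytosines. Between the alleles and Col with ARE//AGe, 1004 cytosines were called at an adjusted p under 0.05, or 38.2% of those tested. Of these, 984 were higher in the alleles (37.4%) and 20 were lower (0.761%). The AGe domain held 656 of the higher calls, out of 725 tested there, and no lower call. By context 42 of 52 CpG, 61 of 65 CHG and 553 of 608 CHH sites in it were higher. The lower part of the AGp domain held 259 higher and 2 lower calls among 301, and its upper part 5 higher calls among 51.

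Below the AGp domain, from 10379702 to 10380601, 28 of 230 sites were called higher, and in the rest of the region 36 were higher and 18 lower among 1322. The share in the AGe domain, which was delimited in a library outside the tests, thus stood above the 38.2% over all sites. The share in the rest of the region stood below it. The border between the lower and the upper part of the AGp domain was read from the allele libraries compared here. The start of the stretch below the AGp domain was also set from them. The contrast in shares between these stretches was therefore partly built in, and their counts are a description. With Col ARE//AGe of set A or of set C left out, there were fewer higher calls and more lower calls than with both. In those fits the lone Col library with ARE//AGe was assumed to vary like the other groups.

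Among CpG sites the largest gains lay near the upper end of the AGe domain. The site at 10386966 had 89%, 90%, 89%, 87% and 91% in suvh1-2 sMf, hdp1-1 rMf, hdp1-1 sMf, hdp2-1 rMf and hdp2-1 sMf, against 6% and 0% in Col ARE//AGe of sets A and C (limma adjusted p = 0.000379). At 10386326 the 5 libraries had 82%, 86%, 85%, 82% and 84%, and both Col libraries were listed at 0 (limma adjusted p = 3.05e-05). The spread among the 5 libraries was under 2 points at both sites (SD 1.48 and 1.79). Named sites were picked among those whose groups do not overlap.

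The CHG site at 10386300 had 83%, 88%, 86%, 85% and 87% in the 5 libraries and was listed at 0 in both Col libraries (limma adjusted p = 7.73e-05). In the lower part of the AGp domain the CHG site at 10381220 had 77%, 89%, 81%, 83% and 87%, with both Col libraries listed at 0 (limma adjusted p = 4.83e-05). The leading CHH sites all lay there. At 10381196 the 5 libraries had 77%, 88%, 78%, 83% and 82%, with both Col libraries listed at 0 (limma adjusted p = 0.000103), and the sites at 10381171 and 10381177 averaged 81.0% and 77.6%, with Col listed at 0. These CHH sites were methylated to a similar degree in all 5 libraries.

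Losses were few and small except in CpG. The CpG site at 10380748, in the lower part of the AGp domain, had 12%, 11%, 33%, 8% and 15% in suvh1-2 sMf, hdp1-1 rMf, hdp1-1 sMf, hdp2-1 rMf and hdp2-1 sMf, against 46% and 67% in Col ARE//AGe (limma adjusted p = 0.0137). It had 42%, 68% and 73% in suvh1-2, hdp1-1 and hdp2-1 without a construct (limma adjusted p = 0.00431) and 71%, 83% and 61% in Col without one. The 5 libraries were lower at this site than every library of these other groups. Without suvh1-2 and hdp1-1 the adjusted p against hdp2-1 without a construct was 0.00588 by limma. The call against Col was lost without Col ARE//AGe of set C, and the direction turned in the rows as deposited, before realignment. In the window from 10380702 to 10380801, with 4 CpG sites, the 5 libraries had 12.0%, 10.5%, 32.0%, 6.0% and 13.2%, against 35.5% and 58.2% in Col ARE//AGe. In hdp2-1 rMf this window lies outside the upstream run, which starts at 10380902. The window before it, from 10380602, with 2 CpG sites, had the largest mean CpG loss against the alleles without a construct, at -22.9 points. Its levels were 43.5%, 29.5%, 58.0%, 23.5% and 48.5% in the 5 libraries. In suvh1-2, hdp1-1 and hdp2-1 without a construct they were 58.0%, 66.5% and 66.0%, so the groups met at 58.0%. Col ARE//AGe had 26.5% and 69.0% there.

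The CpG site at 10390363, above the AGe domain, had 12%, 0%, 45%, 0% and 0% in the 5 libraries, against 65% and 62% in Col ARE//AGe (limma adjusted p = 0.0257). Without a construct it had 34%, 56% and 3% in suvh1-2, hdp1-1 and hdp2-1, and 80%, 62% and 29% in Col, so a low value was also found without ARE//AGe. It was lost as a call in 7 of 13 alternatives, among them leaving out either Col library or hdp1-1 rMf, hdp2-1 rMf or hdp2-1 sMf. Every CHG and CHH loss named by the rule was listed at 0 in each of the 5 libraries with a value and had at most 20% in Col ARE//AGe, as at the CHG site 10391064, with 14% and 20%.

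Windows of 100 bp gave the following gains. For CpG the window from 10386902 to 10387001 has 4 sites, among them 10386966, named above. It had 85.2%, 82.8%, 88.2%, 84.5% and 85.5% in the 5 libraries, against 8.75% and 1.25% in Col ARE//AGe. For CHG the window from 10381202 to 10381301 has 2 sites, among them 10381220, named above. It averaged 80.7% ± 5.08 in the 5 libraries (SD, n = 5), with Col ARE//AGe listed at 0. For CHH the window from 10381102 to 10381201, with 25 sites, had 57.4%, 69.1%, 56.0%, 62.8% and 63.3%, against 0% and 0.160% in Col ARE//AGe. The largest CHH loss of any window was -1.49 points against Col ARE//AGe and -2.01 points against the alleles without a construct.

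The construct within the alleles was examined against the same alleles without it. Here 983 of 2629 sites were called by limma (37.4%), 945 higher with ARE//AGe (35.9%) and 38 lower (1.45%). The AGe domain held 638 higher calls of 725, and the lower part of the AGp domain 227 higher and 1 lower of 301. Without suvh1-2 and hdp1-1, leaving hdp2-1 as the only library without a construct, 926 sites were called, of which 820 were among the 983. In that fit the lone library was assumed to vary like the other groups.

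The named sites with the largest gains had intermediate values in suvh1-2 without a construct. In hdp1-1 without a construct most had lower values above 0, while the CpG site at 10386771 and the CHH site at 10384767 were listed at 0. The CpG site at 10386965 had 91%, 91%, 91%, 91% and 88% in the 5 libraries, against 24%, 7% and 0% in suvh1-2, hdp1-1 and hdp2-1 without a construct (limma adjusted p = 0.00129). Col without a construct had 0% and 20% in set A and 0% in set C at that site. The CHH site at 10381171 had 76% to 86% in the 5 libraries, against 36%, 30% and 0% in suvh1-2, hdp1-1 and hdp2-1 without a construct (limma adjusted p = 0.00266). Among the libraries without a construct the order suvh1-2, hdp1-1, hdp2-1, from high to low, held at 10386965 and 10381171 and over both domains. Without suvh1-2 and hdp1-1, leaving hdp2-1, limma gave adjusted p = 0.00131 at 10386965 and 7.54e-07 at 10381171.

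In Col few sites were called between plants with and without the construct. With 2 libraries against 3, a site that was not called may still differ. Between Col with ARE//AGe and Col without a construct limma called 1 site of 2629 (0.0380%), a CHG site outside both domains, while 69 had an unadjusted p under 0.05, 23 of them in the AGe domain. The difference between the 2 effects of the construct, in the alleles minus in Col, was called at 239 sites (9.09%), 231 with a larger gain in the alleles (8.79%) and 8 with a smaller one (0.304%). Of the larger gains 149 lay in the AGe domain and 69 in the lower part of the AGp domain. In the alleles the construct came with sMf or rMf flowers and in Col with Wt flowers. The difference between the 2 effects therefore includes the flower phenotype. The count of 239 moved widely with single libraries. It was 656 when suvh1-2 without a construct was left out, and 786 when hdp1-1 without a construct was left out as well. It was 151 without hdp1-1 rMf, 145 without hdp2-1 sMf, 89 and 117 without Col ARE//AGe of set A and of set C, and 154 and 147 without Col of set A (replicate A) and Col of set C. The comparisons share their allele and Col libraries, and their counts are not independent.

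Where methylation ended was read as the outer border of runs of 100-bp windows with a mean of 10% or more. The upstream run ended at 10381801 in all 5 libraries. The last window below that border had 28.4%, 33.3%, 33.3%, 31.3% and 35.6% over all contexts in suvh1-2 sMf, hdp1-1 rMf, hdp1-1 sMf, hdp2-1 rMf and hdp2-1 sMf, and the window above it 2.50%, 1.83%, 5.96%, 2.88% and 5.17%. Col ARE//AGe had 0.211% and 0.314% below the border and 1.85% and 0% above it. The same end was found in suvh1-2 without a construct, and an end at 10381201 in hdp1-1 without one. Neither Col ARE//AGe library had a run at this threshold. At a 5% threshold Col ARE//AGe of set C had an AGe run from 10385802 to 10386701, and that of set A had none.

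The end at 10381801 lies 1000 bp short of the end in Col AGp//AGe with sMf flowers, at 10382801, and Col AGp//AGe with rMf flowers ended at 10383201. At a 20% threshold the sMf library of Col AGp//AGe ended at 10382701 and its rMf library at 10381701, which is 1 window short of the end in the 5 libraries. At a 5% threshold the ends moved up to 10382001 in suvh1-2 sMf and to 10381901 in hdp1-1 sMf and hdp2-1 sMf. Over the upper part of the AGp domain (10381802 to 10382801) the 5 libraries had 1.09%, 1.04%, 1.39%, 0.660% and 1.72% over all contexts, against 21.9% and 17.2% in Col AGp//AGe. Col ARE//AGe had 0.417% and 0.256% there. The part was delimited from these 5 libraries, so its level is a description without a test. In it 28 to 51 of 252 cytosines had no value in the 5 libraries, whereas none of 338 in the lower part and none of 745 in the AGe domain lacked one, so the border coincides with a change in missing values. The part of read coverage in the position of the border was not tested.

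With ARE//AGe in Met1-1 and ddm1-1 the upstream run ended farther up, at 10383001 and 10382601 in Met1-1 sMf and rMf and at 10382001 in both ddm1-1 libraries. The 5 libraries here did not overlap those 4 at the 10% threshold in 100-bp windows, and the difference was not tested. In 200-bp windows ddm1-1 sMf ended at 10381801, as did the 5 libraries. Of 590 cytosines in the AGp domain, 548 and 449 had a value in Met1-1 sMf and rMf. In ddm1-1 sMf and rMf 468 and 499 had one, against 539 to 562 in the 5 libraries. The part of missing values in these ends and levels was not tested. At a 20% threshold all the libraries of both sets ended at 10381801, so the libraries of Met1-1 and ddm1-1 differed by a tail of low methylation above that point. Mean CHG and CHH levels did not separate the 2 sets. They were 34.1% ± 3.96 in suvh1-2, hdp1-1 and hdp2-1 and 30.7% ± 2.69 in Met1-1 and ddm1-1 in the AGe domain (SD, n = 5 and 4; exact permutation p = 0.206, adjusted p = 0.222), a difference of 3.37 points with overlap. In the AGp domain the difference was -2.28 points (22.1% ± 2.19 and 24.4% ± 3.65; exact permutation p = 0.286, adjusted p = 0.286). The smallest p possible here was 0.0159 before adjustment. With so few libraries no adjusted p of this comparison could have fallen under 0.05. The adjusted p-values therefore cannot decide whether the levels of the 2 sets differ.

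**Figure D3:**
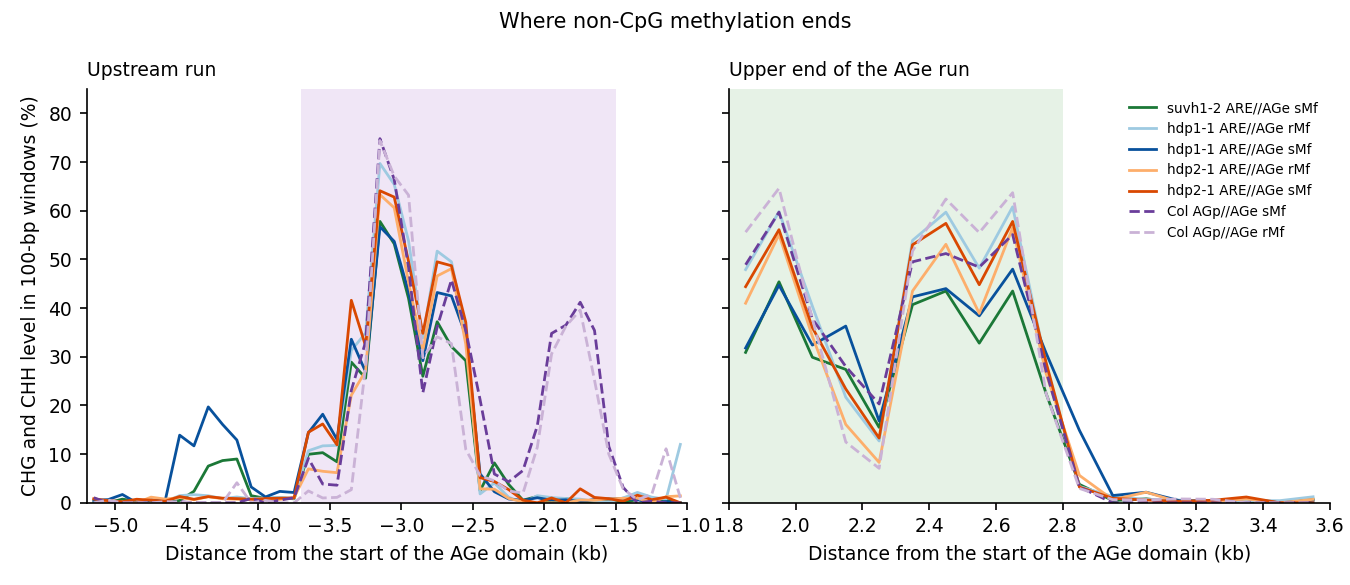
CHG and CHH level in 100-bp windows in percent against the distance from the start of the AGe domain in kb, for the upstream run (left panel) and the upper end of the AGe run (right panel). Solid lines are the 5 allele libraries with ARE//AGe and broken lines are Col AGp//AGe. Shading marks the AGp domain (left panel) and the AGe domain (right panel). The solid lines drop at the same window, 1000 bp before the end of the AGp domain. The broken lines also fall near it and then rise to a second peak, with 41.2% in sMf and 39.6% in rMf in the window from 10382502, which the solid lines lack.

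The lower end of the upstream run varied more. It lay at 10380602 in suvh1-2 sMf, hdp1-1 rMf and hdp2-1 sMf, at 10380902 in hdp2-1 rMf and at 10379702 in hdp1-1 sMf, 900 bp farther out. Between 10379702 and 10380601 CHG levels were 8.40% in suvh1-2 with sMf flowers, 1.32% and 24.0% in hdp1-1 with rMf and sMf flowers, and 0.560% and 1.08% in hdp2-1 with rMf and sMf flowers, against 0.800% and 0.200% in Col ARE//AGe. CpG levels were 6.23%, 0.833%, 11.7%, 0.600% and 1.20% in the same order, against 0% and 0.333% in Col ARE//AGe. The extension was thus found in hdp1-1 sMf and, at a lower level, in suvh1-2 sMf, whose lower end moved to 10379902 at a 5% threshold. Met1-1 sMf with ARE//AGe had 40.2% CHG over these 900 bp and the same lower end, 10379702, whereas ddm1-1 sMf had 4.56%.

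The AGe run started at 10384302 in all 5 libraries and ended at 10387101 in 4 of them, as in Col AGp//AGe with sMf flowers. In hdp1-1 sMf it reached 10387201. The first 100 bp above the domain had CHG levels of 5.0%, 3.0%, 16.2%, 6.75% and 2.50% in suvh1-2 sMf, hdp1-1 rMf, hdp1-1 sMf, hdp2-1 rMf and hdp2-1 sMf, against 0% and 1.50% in Col ARE//AGe. In Met1-1 and ddm1-1 with ARE//AGe the same 100 bp had 24.2% to 37.0% CHG, and all 4 runs ended at 10387201. At the lower border the first window had 21.3%, 27.5%, 25.9%, 18.3% and 30.9%, and the window before it 6.12%, 4.09%, 9.25%, 3.75% and 3.97%.

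Inside the AGe domain high sites were often high in all 5 libraries. Of 65 CHG sites 37 had at least 50% in all 5 libraries, against 8 of 52 CpG sites and 45 of 628 CHH sites. At least 20% in all 5 was found at 51 CHG, 18 CpG and 378 CHH sites. No site of the domain had 20% in both Col ARE//AGe libraries, while 6 CHG, 1 CpG and 26 CHH sites had it in either of them. All 65 CHG and 624 of 628 CHH sites were above 0 in all 5. A low stretch inside the AGe domain, from 10385302 to 10385701, had 6.10%, 6.20%, 10.6%, 4.10% and 5.77% over all contexts, against 2.95% and 0.576% in Col ARE//AGe.

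Levels on the strands were close in the AGe domain, whereas in the lower part of the AGp domain the minus strand was higher in each context in all 5 libraries. There CHH levels on the plus and the minus strand were 28.9% and 31.5% for suvh1-2 sMf and 30.8% and 36.6% for hdp2-1 rMf, the smallest and the largest gap. In the AGe domain CHH levels on the plus and the minus strand were 26.8% and 26.1% for suvh1-2 sMf and 36.2% and 37.0% for hdp1-1 rMf. They were 30.3% and 29.0% in hdp1-1 sMf, 30.9% and 31.3% in the rMf library of hdp2-1, and 35.3% and 34.8% in its sMf library. CHG levels on the 2 strands were 52.6% and 52.2% in suvh1-2 sMf and 59.9% and 58.9% in hdp2-1 sMf. Across the 628 CHH sites Pearson's r between pairs of the 5 libraries lay between 0.92 and 0.98, given as a description of sites that share region, base composition and library. This pattern is not particular to the 5, since their r with Col AGp//AGe sMf was 0.89 to 0.92 and that of hdp1-1 sMf with ddm1-1 sMf was 0.94.

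The flower phenotypes sMf and rMf could be set side by side within hdp1-1 and hdp2-1, with 1 library each and so without a test. In hdp1-1 the AGe CpG level was 47.0% in sMf and 23.4% in rMf flowers, and 26 of 52 CpG sites were at least 20 points higher in sMf and none was as much lower. CHG differed by 0.446 points on average (58.6% in sMf and 58.2% in rMf), with 10 of 65 sites at least 20 points higher in sMf. CHH went the other way, at 29.6% in sMf and 36.6% in rMf, with 28 sites at least 20 points lower and 2 as much higher.

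In hdp2-1 all 3 contexts were somewhat higher in sMf flowers. CpG was 29.2% in sMf and 23.5% in rMf, CHG 59.4% in sMf and 52.1% in rMf, and CHH 35.1% in sMf and 31.1% in rMf. Only 4 of 52 CpG sites were at least 20 points higher, against 26 in hdp1-1, and the difference between the alleles was not tested. In the lower part of the AGp domain CpG was again higher in sMf flowers, at 34.2% in sMf and 22.0% in rMf for hdp1-1, and at 27.0% in sMf and 19.2% in rMf for hdp2-1. CHH there was 33.9% in sMf and 38.6% in rMf for hdp1-1, and 38.7% in sMf and 33.4% in rMf for hdp2-1, so the sign of the CHH difference was opposite in the 2 alleles in both stretches. The sMf library of suvh1-2 has no rMf counterpart.

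**Figure D4:**
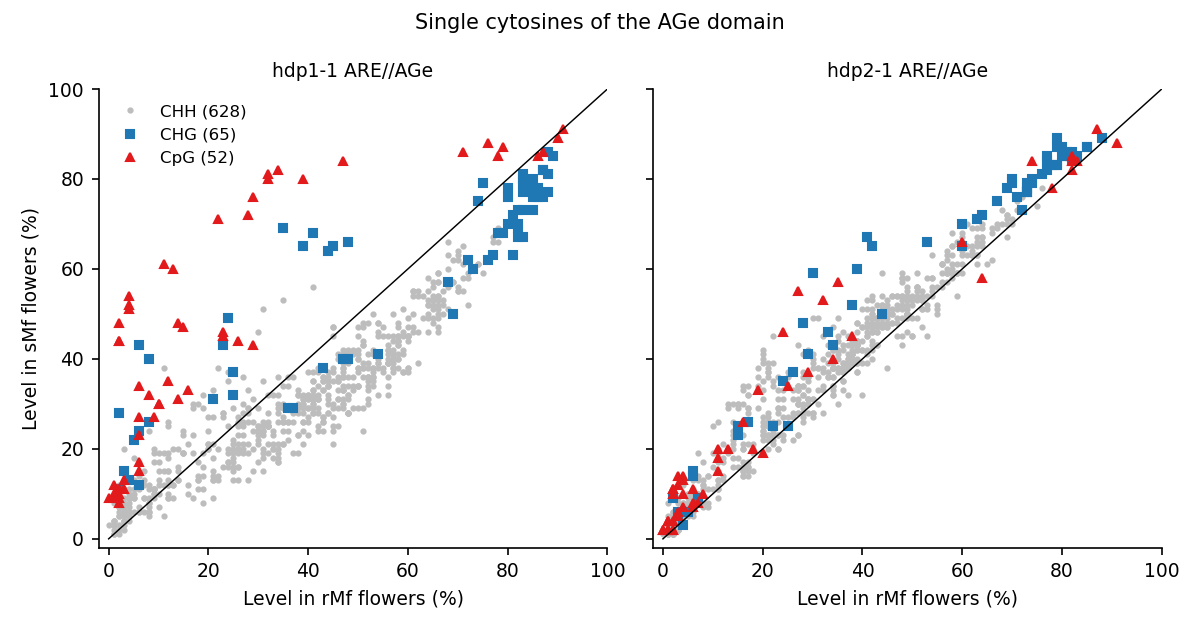
Level of each cytosine of the AGe domain in sMf flowers (vertical axis, percent) against rMf flowers (horizontal axis, percent), for hdp1-1 (left) and hdp2-1 (right) with ARE//AGe. Triangles are 52 CpG, squares 65 CHG and small grey points 628 CHH sites, and the line marks equal levels. In hdp1-1 many CpG sites lie far above the line (47.0% in sMf and 23.4% in rMf on average) and the mean of the CHH sites lies below it (29.6% in sMf and 36.6% in rMf), while in hdp2-1 the means of the contexts stay within 8 points of the line.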

How the data were processed

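DNA of flowers was sequenced after bisulfite treatment, per the labels' protocols. Bismark, FastQC 0.11.9, HISAT2 and the build TAIR10 are named without roles in the submitters' processing notes. No coverage minimum or conversion rate is stated there. The deposited values are methylation levels as a score in whole percent whose sign gives the strand, so absolute values were used. Entries marked rc, whose meaning is not stated, and empty entries were treated as missing. Because neither coverage nor counts come with them, 0 can mean unmethylated or uncovered, and no binomial interval was computed.

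The columns form 5 blocks whose rows slip against the coordinates. Strands of CpG and CHG sites follow from the coordinates, and those of CHH sites from block 1, so a hidden Markov model of the signs (displacement up to 40 rows, sign error rate 0.003, change rate 0.004, least posterior 0.9) realigned blocks 2 to 5. Signs matched in 57.753% to 68.439% of rows before and at least 99.953% after, and at least 94.868% of rows were kept. As a check on magnitudes, which the model did not use, r between the 2 Col ARE//AGe libraries moved from 0.551 to 0.789. After leaving out 68 rows that share a coordinate, 5210 rows placed in every block were analysed. No 2 libraries held identical values.

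Domains are stretches in which 100-bp windows reach 10%, with at least 5 windows and gaps of at most 5 lower windows, in Col AGp//AGe sMf. Levels are means over cytosines, compared with two-sided exact permutation tests (scipy 1.17.1) with Benjamini-Hochberg adjustment over 14 tests. Single cytosines were tested with limma 3.58.1 (R 4.3.3, trended empirical Bayes, Benjamini-Hochberg) on log2((p + 0.01)/(1 - p + 0.01)), with p the level as a fraction, in 13 libraries of 4 groups. Sites above 0 in at least 2 libraries were tested, with at least 2 values in each group, a condition added after the data were seen. The offset sets the size of a log2 odds difference where a group is listed at 0. Scripts were tested on simulated data. Named sites are the 3 called gains and losses per context of largest size whose groups do not overlap. Groups were taken from the titles. Members, lists and tests were chosen with earlier results of these data known. Figures were drawn with matplotlib 3.10.9.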

Additional observations from a re-analysis of the deposited data

Results flagged for a closer look

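Among 27 sets of 5 levels (the 5 allele libraries with ARE//AGe, by stretch and context), 4 had a library far from the other 4, with a gap above 0.71 of the range. The rate of about 1 in 20 for independent sets does not apply, since some stretches lie within others and some were cut from these libraries. In 3 of the flagged sets the library was hdp1-1 sMf. The stretch below the AGp domain was set to start where the run of hdp1-1 sMf starts, so a high level there was built in. Among the 5 libraries, only the run of hdp1-1 sMf covers the first 100 bp above the AGe domain. Its CHH level was 7.38% below the AGp domain and 14.6% in the first 100 bp above the AGe domain, and its CHG level was 18.8% in the low stretch inside the AGe domain, each the highest of the 5. In the upper part of the AGp domain, with 6 CpG sites, hdp2-1 sMf had a CpG level of 0.50% and the other 4 were listed at 0.

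The difference between libraries with and without the construct, which in the alleles includes the flower phenotype, was larger or smaller than in Col at 239 cytosines. This count is by limma's interaction at an adjusted p under 0.05. Its range over single libraries left out stands with that result above.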

How the results depend on the processing

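The sign of each level difference held under every alternative run (rows as deposited, sMf or rMf libraries only, domains from Col AGp//AGe rMf, medians over windows, single libraries left out), except CpG in the AGp domain between the alleles and Col, at -3.74 when cytosines listed at 0 throughout a block were left out. None passed an adjusted p of 0.05, and with so few libraries none could. In the AGp domain sizes moved most, with 24.2 points of CpG in domains from Col AGp//AGe rMf, 6.41 with rMf libraries only, and 8.27 of CHG as a median over windows. The CpG difference in the AGe domain was 16.4 points in rows as deposited. Averaged within each of the 3 alleles, the gap to the libraries without a construct was 28.0, 45.4 and 25.3 points of CpG, CHG and CHH in the AGe domain. The CpG site at 10380748 turned to log2 odds differences of 4.11 against Col and 1.30 against the alleles without a construct in rows as deposited, and the cause was not tested.

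Calls between the alleles and Col numbered 888 to 1025 over settings and 834 to 1058 with a library left out. Calls between the alleles with and without the construct numbered 807 to 1017 over settings and 800 to 988 with a library left out. Interaction calls numbered 535 with an offset of 0.05, 157 without a filter, 642 on the percent scale and 786 without suvh1-2 and hdp1-1 without a construct, and from 89 to 656 with single libraries left out. The 1 call in Col became 2 in rows as deposited, and 0 by limma without a filter, with a filter of 5% or with the 2 groups alone (192, 55 and 30 sites at an unadjusted p under 0.05). It was 0 to 8 with single libraries left out. The median ends moved by at most 300 bp, at a 20% threshold. No paired analysis was possible because the compared libraries carry no shared replicate numbers. With allele as a covariate, limma called 904 sites between the alleles with and without the construct, of which 843 were among the 983. Unknown depth limits every level near 0.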

Other observations

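A cluster of 10 CpG sites from 10388602 to 10388701, above the AGe domain and chosen after its values were seen, varied between libraries of one genotype. It had 38.8% in hdp1-1 sMf and 0.600% in hdp1-1 rMf with ARE//AGe, and 51.5% in hdp1-1 without a construct. The suvh1-2 and hdp2-1 libraries with ARE//AGe had at most 0.800%, and both Col ARE//AGe libraries had 0.90%. Col without a construct had 20.7% and 14.0% in set A and 0.700% in set C. With ARE//AGe, ddm1-1 had 25.2% in sMf and 25.9% in rMf flowers. No test was made.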
